A study of Homo sapiens with 6 samples.

Results

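The genes of voltage-gated calcium channels, voltage-gated sodium channels and transient receptor potential (TRP) channels were examined in A375 melanoma cells with and without targeting of SOX10. They were taken from the count table by symbol, as the protein-coding genes whose names begin with CACNA, CACNB, CACNG, SCN and a digit, or TRPA, TRPC, TRPM or TRPV and a digit. This gave 63 of 58721 genes: 26 of calcium channels, 14 of sodium channels and 23 with TRP names. Of the last, TRPC4AP encodes an adaptor protein and TRPC5OS a gene on the strand opposite TRPC5, so neither is a channel gene.

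A375 is an established human melanoma line with a mutant BRAF gene, here grown in DMEM with fetal bovine serum. All cells carried a CRISPR guide: in 3 control libraries it was directed at mCherry, a fluorescent protein gene that human cells lack (genotype label WT), and in 3 knockout libraries at SOX10, whose product is a transcription factor of neural crest and pigment cells. Whether the targeted cells were a clone or a mixture, and whether replicates came from separate cultures, is not in the labels, so p-values measure only how these libraries differ, which could be technical. Gene counts summed to 70075002 to 78148565 per library, and 3 counts stood at 0.0383 to 0.0417 CPM (counts per 1000000 counts of the TMM-scaled library size). SOX10 itself stood at 241, 237 and 223 CPM in control against 47.2, 47.8 and 41.5 CPM in knockout libraries (log2 fold change -2.36, SE 0.08, adjusted p = 1.84e-07 by edgeR).

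Voltage-gated calcium and sodium channels open when the membrane depolarises. Each is built on a large pore protein, encoded by the CACNA1 genes for calcium and the SCN genes ending in A for sodium, to which smaller subunits bind that set its trafficking and gating: CACNA2D, CACNB and some CACNG products on calcium channels, and the products of the SCN genes ending in B on sodium channels. TRP channels are cation channels, most of them permeable to calcium, that respond to temperature, chemical irritants, lipids, cell swelling or the emptying of calcium stores. TRPM1 is known as a melanocyte gene controlled by MITF, and TRPM7, a channel joined to a kinase, carries magnesium and calcium in most cell types.

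Of the 63 genes, 32 had enough reads to be tested. Knockout libraries were higher in 12 and lower in 5, and the other 15 did not pass the threshold (edgeR quasi-likelihood test over all genes, Benjamini-Hochberg adjusted p under 0.05). Over all 19263 tested genes 28.0% passed, 14.0% higher and 14.0% lower; among the channel genes these shares were 53.1%, 37.5% and 15.6%. DESeq2 and limma-voom likewise called 12 higher and 5 lower channel genes, with 29.8% and 28.0% of all tested genes called. Among tested protein-coding genes of any kind, 33.0% passed in edgeR, 15.9% higher and 17.1% lower. Without control replicate 1 or 2, or knockout replicate 2 or 3, the count of lower channel genes was 3. In those fits 9.09% to 10.6% of all tested genes were lower. The median log2 fold change of the channel genes was 0.12, against -0.02 for all tested genes. Groups did not overlap in 22 of the 32, or 68.8%, against 41.6% of all tested genes and 46.6% of tested protein-coding genes. By family, 3 of 13 calcium channel genes rose and none fell, 3 of 5 sodium channel genes rose and 1 fell, and 6 of 14 tested TRP genes rose and 4 fell. At least 2-fold changes were called in 6 genes upward and 3 downward, against 6.1% and 4.72% of all tested genes.

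**Figure D1:**
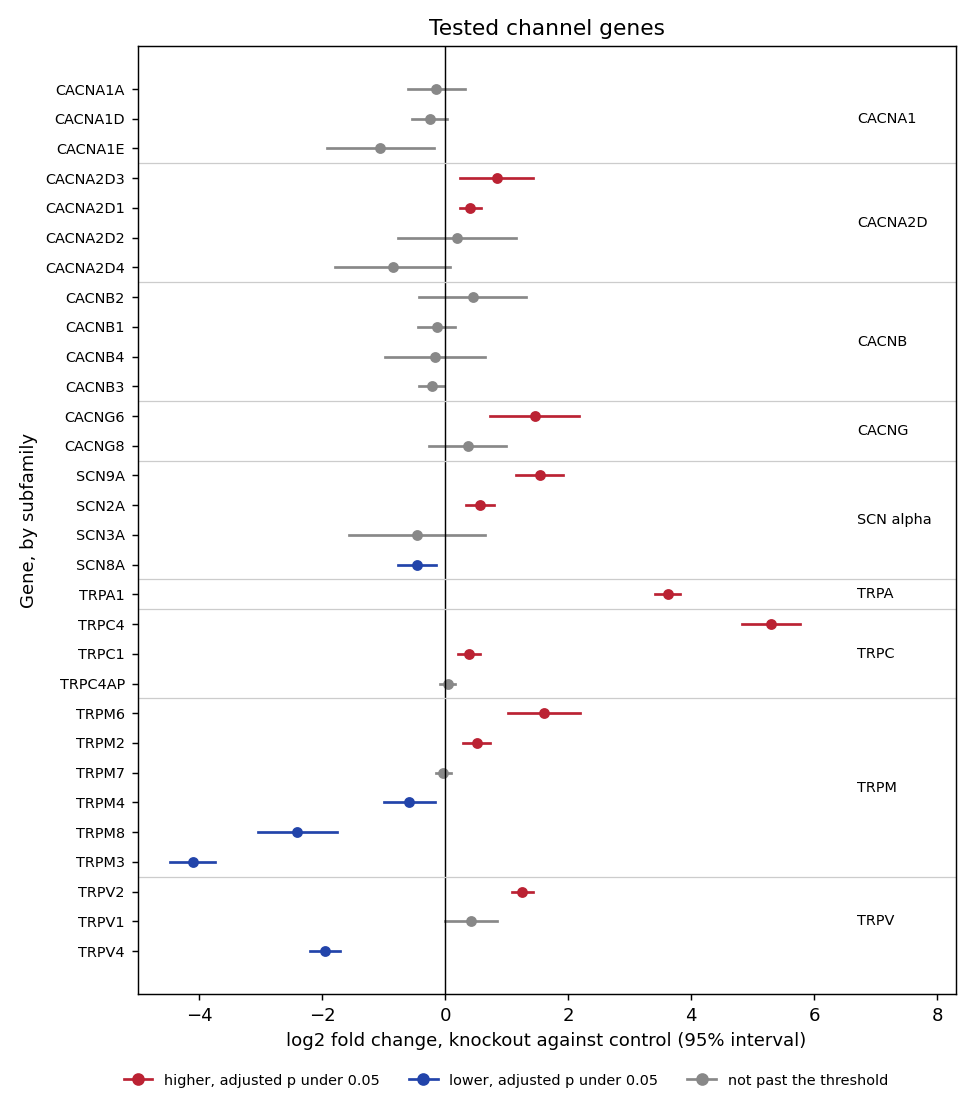
Log2 fold change of knockout against control (x axis) for 30 of the 32 tested channel genes (y axis, by subfamily), with 95% intervals from the edgeR fit; red genes were higher, blue lower and grey not past the threshold. TRPC4 at 5.30 and TRPM3 at -4.11 mark the ends of the range, and the CACNA1 and CACNB genes plotted are all grey.

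The steepest rise was that of TRPC4 (ENSG00000133107; GRCh38 chromosome 13, 37636636 to 37870425, minus strand), the pore protein of a receptor-operated cation channel. It was read 5, 8 and 11 times in control and 327, 330 and 348 times in knockout libraries, or 0.0695, 0.108 and 0.153 CPM against 4.54, 4.21 and 4.44 CPM. Every knockout library lay far above every control library, 40.0-fold in the means (log2 fold change 5.30, SE 0.20, 95% interval 4.83 to 5.77, adjusted p = 4.40e-07). TRPC4 reached the read minimum in 1 control library only and was tested because of its knockout libraries. TRPC4AP, whose protein was named for binding the TRPC4 channel and which also serves a ubiquitin ligase, stood at 105.6 ± 2.01 CPM in control against 109 ± 3.46 CPM in knockout libraries (SD, n = 3); its log2 fold change of 0.04 had a 95% interval of -0.09 to 0.17 (adjusted p = 0.659 by edgeR).

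The sequence around the TRPC4 start is given because the gene went from a few reads to the counts above. It is the RefSeq window of 250 bases before to 50 after the annotated start, on GRCh38.p14 (chr13:37869723-37870022, minus strand), 5′ to 3′, of which 65.3% is G or C. None of 5 motifs looked for, described further on, stood in it.
TRPC4: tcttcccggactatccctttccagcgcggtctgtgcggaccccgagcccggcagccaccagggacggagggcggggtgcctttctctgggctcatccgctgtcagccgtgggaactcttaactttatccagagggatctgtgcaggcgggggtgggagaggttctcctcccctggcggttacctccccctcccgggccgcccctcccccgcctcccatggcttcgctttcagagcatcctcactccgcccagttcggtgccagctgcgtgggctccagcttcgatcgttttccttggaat

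TRPC1, a pore protein that assembles with other TRPC proteins, rose by a small amount. Its level was 8.54, 8.29 and 8.89 CPM in control against 10.6, 11.3 and 11.8 CPM in knockout libraries, which did not overlap (1.31-fold, log2 fold change 0.39, SE 0.08, adjusted p = 0.00585 by edgeR). TRPC6, opened by diacylglycerol, had at most 8 counts in a library, and TRPC5, TRPC5OS and TRPC7 at most 1, so these were not tested.

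TRPA1 (ENSG00000104321; chromosome 8, 72019917 to 72075617, minus strand), the channel of pungent and oxidising irritants, rose 12.3-fold. Control libraries held 1.70, 1.51 and 1.53 CPM and knockout libraries 20.04, 18.8 and 19.3 CPM, with little spread in either group (log2 fold change 3.62, SE 0.09, adjusted p = 5.17e-08 by edgeR). Of its merged exon bases, 15.4% are shared with the antisense gene MSC-AS1, which fell from 3.77 to 1.41 CPM (log2 fold change -1.41, adjusted p = 2.00e-04). Whether counting used strand is not stated in any source used here. If it did not, how reads in the shared bases were assigned is not known. Their part in the change was not tested.

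**Figure D2:**
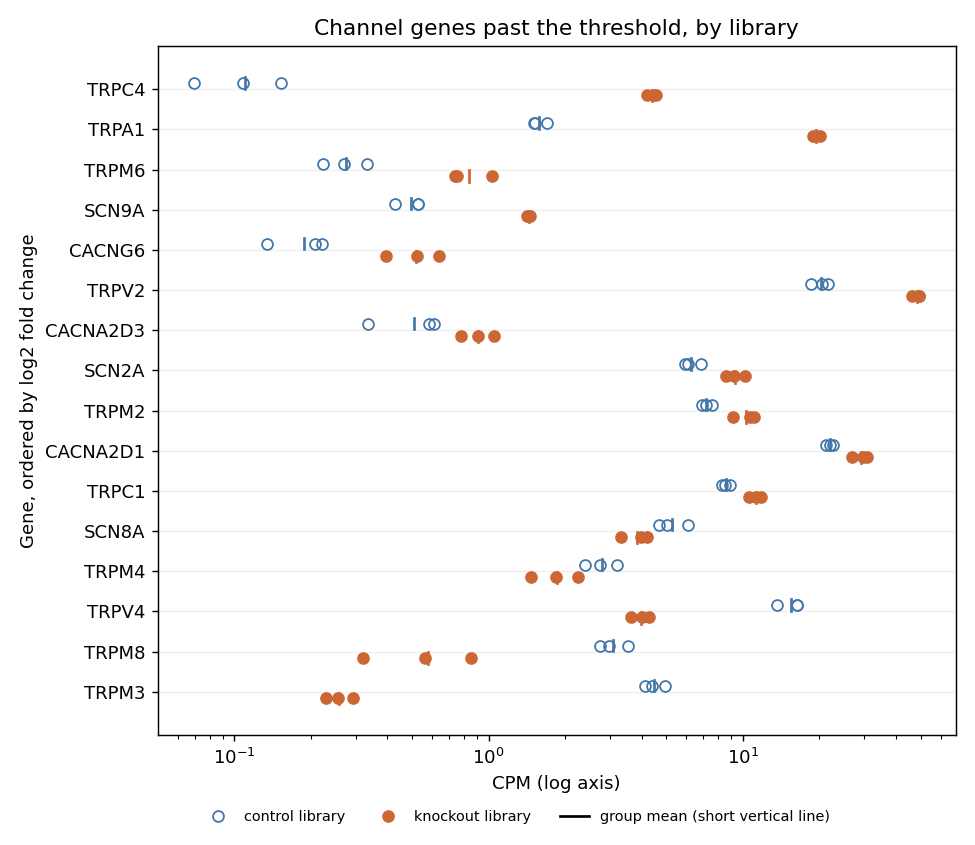
CPM on a log axis (x) in each library for 16 of the 17 channel genes past the threshold (y axis, ordered by log2 fold change); open circles are control libraries, filled circles knockout libraries and short vertical lines group means of n = 3. In the 16 genes plotted the groups do not overlap; the gap between them is widest for TRPC4 and TRPA1 (knockout to the right) and for TRPM3 (knockout to the left).

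Among the TRPV genes, TRPV2 rose and TRPV4 fell. TRPV2 (ENSG00000187688; chromosome 17, 16415542 to 16437003, plus strand) encodes a calcium-permeable channel of the vanilloid subfamily and was the most abundant TRPV gene per kilobase of exons. It went from 20.5, 21.6 and 18.6 CPM in control to 49.2, 49.4 and 46.4 CPM in knockout libraries, 2.39-fold (log2 fold change 1.26, SE 0.07, adjusted p = 4.29e-06 by edgeR). TRPV4 (ENSG00000111199; chromosome 12, 109783085 to 109833401, minus strand), a channel opened by cell swelling and warmth, went the other way. Its control libraries held 16.3, 16.4 and 13.6 CPM and its knockout libraries 4.28, 4.00 and 3.63 CPM, 3.88-fold lower (log2 fold change -1.96, SE 0.11, adjusted p = 2.65e-06 by edgeR). Per kilobase of merged exons, TRPV2 and TRPV4 stood at 5.93 and 4.10 CPM in control but at 14.2 and 1.06 CPM in knockout libraries.

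TRPV1, the capsaicin receptor, stood at 2.67, 2.71 and 1.91 CPM in control against 3.90, 3.21 and 2.64 CPM in knockout libraries, which overlapped. Its log2 fold change of 0.42 (95% interval -0.01 to 0.84) did not pass the test (adjusted p = 0.141 by edgeR), and 27.5% of its merged exon bases are shared with a gene model on the same strand. TRPV3 had at most 7 counts in a library, TRPV6, an epithelial calcium channel, at most 1, and its relative TRPV5 had 0 in all 6 libraries.

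In the TRPM subfamily 2 genes rose and 3 fell of 6 tested. TRPM3 (ENSG00000083067; chromosome 9, 70529063 to 71446904, minus strand), a heat- and steroid-gated channel of sensory neurons, fell the most. Control libraries held 4.38, 4.13 and 4.92 CPM and knockout libraries 0.292, 0.255 and 0.230 CPM, 17.3-fold lower (log2 fold change -4.11, SE 0.16, 95% interval -4.47 to -3.74, adjusted p = 4.61e-07 by edgeR). TRPM8 (ENSG00000144481; chromosome 2, 233917398 to 234019522, plus strand), the cold and menthol receptor, fell 5.33-fold, from 2.99, 2.75 and 3.52 CPM to 0.320, 0.856 and 0.561 CPM. Its knockout libraries differed among themselves by more than those of TRPM3, but all lay below the control libraries (log2 fold change -2.40, SE 0.28, adjusted p = 2.92e-04 by edgeR).

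TRPM3 is also the host of a microRNA gene. The hairpin that yields hsa-miR-204-5p lies within TRPM3 on the same strand (mature form at GRCh38 chromosome 9, 70810031 to 70810052), as that of hsa-miR-211-5p lies within TRPM1 (chromosome 15, 31065095 to 31065116). The mature sequences, from RefSeq, are shown with the seed (bases 2 to 8) in capitals; both have the same seed and differ at 2 of 22 positions.
hsa-miR-204-5p: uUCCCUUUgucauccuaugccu
hsa-miR-211-5p: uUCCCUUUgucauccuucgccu
Libraries of polyadenylated RNA do not measure mature microRNAs, and both microRNA genes had 0 counts in all 6 libraries, so their levels are not known from these data. TRPM1, the melanocyte TRP gene, was close to absent, with 0, 1 and 0 counts in control and 1, 9 and 0 counts in knockout libraries, and was not tested.

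RefSeq lists several starts for TRPM8 and a pair for TRPM3; the outermost of TRPM8 and both of TRPM3 are shown because these genes fell the most. Windows run 5′ to 3′ on GRCh38.p14, from chr9:71446922-71447221 and chr9:71121572-71121871 (minus strand) and chr2:233917123-233917422 (plus strand), and capitals mark a match to a searched motif. Gene counts do not tell which start was used.
TRPM3 upstream start: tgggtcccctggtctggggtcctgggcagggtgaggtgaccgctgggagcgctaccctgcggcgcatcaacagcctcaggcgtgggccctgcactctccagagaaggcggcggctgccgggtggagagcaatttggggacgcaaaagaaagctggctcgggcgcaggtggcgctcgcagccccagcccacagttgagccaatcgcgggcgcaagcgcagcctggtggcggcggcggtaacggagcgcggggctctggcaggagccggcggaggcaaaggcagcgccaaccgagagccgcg
TRPM3 internal start: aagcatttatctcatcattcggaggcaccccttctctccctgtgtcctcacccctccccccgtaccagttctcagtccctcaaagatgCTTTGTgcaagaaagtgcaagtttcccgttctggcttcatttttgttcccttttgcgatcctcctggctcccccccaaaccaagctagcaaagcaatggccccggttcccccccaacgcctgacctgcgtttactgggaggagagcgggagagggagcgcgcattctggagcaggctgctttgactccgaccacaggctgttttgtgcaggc
TRPM8 outermost start: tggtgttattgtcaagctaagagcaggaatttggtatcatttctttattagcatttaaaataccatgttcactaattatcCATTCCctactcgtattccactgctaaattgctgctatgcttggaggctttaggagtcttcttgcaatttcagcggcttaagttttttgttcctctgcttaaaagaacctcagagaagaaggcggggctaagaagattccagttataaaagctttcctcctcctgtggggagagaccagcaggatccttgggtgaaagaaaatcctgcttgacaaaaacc
The internal TRPM3 window holds ACAAAG, read on the other strand, from position -162 relative to the start, and the TRPM8 window holds GGAATG, also on the other strand, from position -170.

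The motifs searched, on both strands, were ACAAAG and ACAATG of SOX factors, CATGTG of the E-box that MITF binds, TGAGTCA of AP-1 and GGAATG of TEAD factors, of which the SOX motifs begin alike and some others can overlap at their ends. RefSeq windows were found for 42 of the 63 genes (71 windows), among them 13 of the 17 that passed the threshold (25 windows). ACAAAG stood in 12 of the 71 windows, 16.9%, against 16.1% of all 35116 windows, and among genes past the threshold it stood in those of TRPM3 and TRPM8, which fell, and of TRPC1, TRPM2 and TRPM6, which rose. ACAATG stood in 5.63% of channel gene windows against 10.8% of all windows, CATGTG in 15.5% against 11.1%, TGAGTCA in 4.23% against 4.95% and GGAATG in 12.7% against 14.0%. These matches are of letters only, and the differences in share were not tested.

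TRPM4, a channel that is opened by calcium and passes sodium and potassium, was lower by less. Its libraries stood at 2.75, 3.20 and 2.40 CPM in control against 2.25, 1.47 and 1.85 CPM in knockout, close together but without overlap (log2 fold change -0.59, SE 0.18, adjusted p = 0.0426 by edgeR). That call was close to the threshold. It held in 2 of the 6 fits that each left out a library, with adjusted p between 0.0194 and 0.161 by edgeR. It was lost without control replicate 1 or 2 or knockout replicate 2 or 3. Over those 6 fits the log2 fold change of TRPM4 ran from -0.74 to -0.43. TRPM6, a magnesium channel joined to a kinase and the closest relative of TRPM7, rose 3.06-fold from a low level, 0.222, 0.270 and 0.333 CPM to 1.03, 0.753 and 0.740 CPM (log2 fold change 1.60, SE 0.26, adjusted p = 0.00181 by edgeR). TRPM2, a calcium channel opened by ADP-ribose and oxidative stress, rose from 6.88, 7.13 and 7.56 CPM to 9.11, 11.05 and 10.7 CPM, 1.43-fold (log2 fold change 0.52, SE 0.10, adjusted p = 0.00397 by edgeR).

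TRPM7 was the most abundant TRPM gene per kilobase of exons and showed no difference past the spread. It stood at 135, 143 and 139 CPM in control against 134, 138 and 138 CPM in knockout libraries, which overlapped. The log2 fold change of -0.03 had a 95% interval of -0.15 to 0.10 (adjusted p = 0.774 by edgeR) and turned to 0.015 when libraries were scaled by total counts. TRPM5, a taste cell channel, had at most 1 count in a library.

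**Figure D3:**
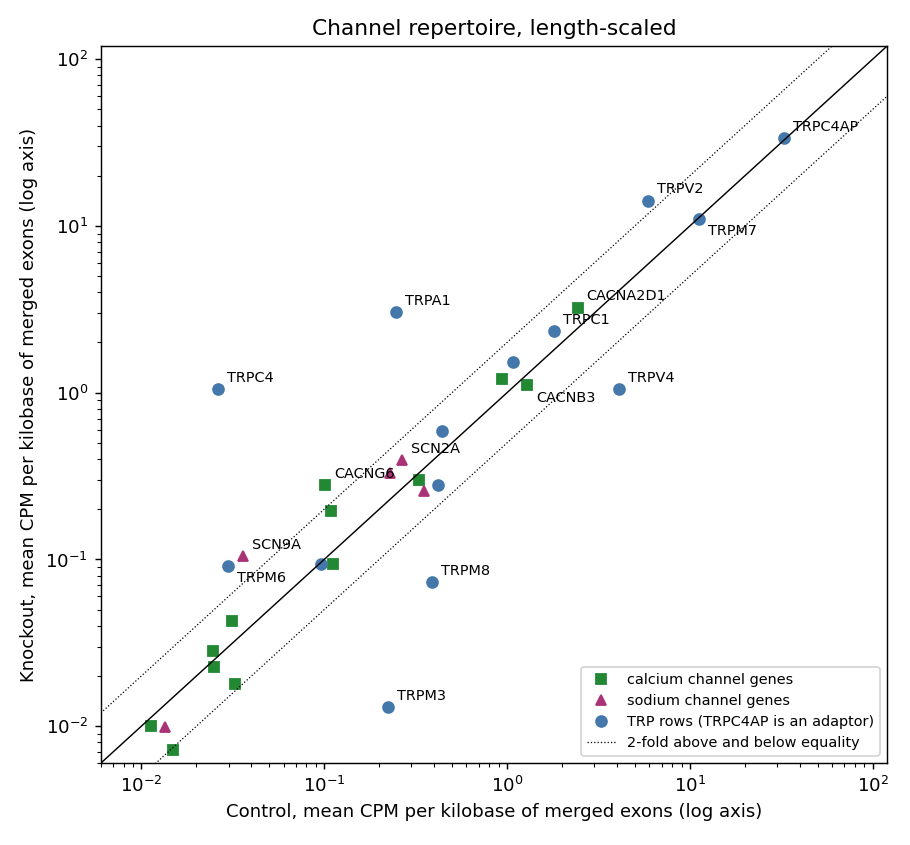
Mean CPM per kilobase of merged exons in control (x) and knockout (y) libraries, both on log axes, for the 32 tested genes; squares are calcium channel, triangles sodium channel and circles TRP genes, the solid line marks equality and dotted lines 2-fold differences. TRPC4 and TRPA1 lie far above the lines and TRPV4, TRPM8 and TRPM3 below them, while most calcium channel genes lie between the dotted lines.

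Levels can be compared between genes once scaled by length. On CPM per kilobase of merged exons, the highest in control libraries were TRPC4AP at 32.7, TRPM7 at 11.2, TRPV2 at 5.93, TRPV4 at 4.10 and CACNA2D1 at 2.43. In knockout libraries they were TRPC4AP at 33.7, TRPV2 at 14.2, TRPM7 at 11.03, CACNA2D1 at 3.24 and TRPA1 at 3.04. TRPA1 thus went from rank 16 to rank 5 of the 32, TRPC4 from rank 27 to 11, TRPV4 from rank 4 to 10 and TRPM3 from rank 18 to 29. Merged exons take in every annotated transcript and reach 43159 bases in CACNA1A, which lowers the value per kilobase of such genes.

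The pore genes of voltage-gated calcium channels were scarce in both groups. Of 10 CACNA1 genes 3 were tested and 0 passed in edgeR, DESeq2 or limma-voom (1, CACNA1E, at an unadjusted p under 0.05). The most abundant per kilobase was CACNA1D, an L-type pore gene, at 2.50, 2.21 and 2.15 CPM in control against 1.97, 2.02 and 1.77 CPM in knockout libraries, without overlap (log2 fold change -0.25, 95% interval -0.54 to 0.04, adjusted p = 0.187 by edgeR). CACNA1E, of R-type channels, stood at 0.274 ± 0.0806 CPM and 0.131 ± 0.0389 CPM (adjusted p = 0.0729), and CACNA1A, of P/Q-type channels, at 1.08 ± 0.250 CPM and 0.977 ± 0.0920 CPM (adjusted p = 0.670). CACNA1C, the L-type gene of heart and smooth muscle, had 4, 3 and 3 counts in control and 7, 12 and 11 counts in knockout libraries, too few for the main test. Without the read minimum its adjusted p was 0.134. The T-type genes CACNA1G, CACNA1H and CACNA1I had at most 4, 1 and 7 counts in a library.

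The CACNA2D genes, which encode the alpha2delta subunits that raise channel numbers at the surface, were all tested, and 2 of 4 rose. CACNA2D1 (ENSG00000153956; chromosome 7, 81946444 to 82443798, minus strand), a target of gabapentin, was the most abundant calcium channel gene per kilobase of exons. It rose from 22.7, 21.9 and 21.2 CPM to 30.8, 29.7 and 26.96 CPM, 1.33-fold, with no overlap (log2 fold change 0.41, SE 0.07, adjusted p = 0.00300 by edgeR). CACNA2D3 rose from 0.584, 0.337 and 0.610 CPM to 0.778, 1.05 and 0.905 CPM (log2 fold change 0.84, SE 0.26, adjusted p = 0.0430 by edgeR). Its call was lost without control replicate 1 or 2 or knockout replicate 2 or 3, with adjusted p between 0.0340 and 0.148 over the 6 fits. CACNA2D4 stood at 0.248 ± 0.0175 CPM in control against 0.137 ± 0.0668 CPM in knockout libraries and CACNA2D2 at 0.156 ± 0.0183 and 0.178 ± 0.0893 CPM; neither passed (adjusted p = 0.166 by edgeR and 0.783).

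The CACNB genes encode the cytoplasmic beta subunits. All 4 were tested and 0 passed in edgeR, DESeq2 or limma-voom, with 1, CACNB3, at an unadjusted p under 0.05. CACNB3, the most abundant per kilobase, stood at 9.63, 8.71 and 9.30 CPM in control against 8.60, 7.85 and 7.31 CPM in knockout libraries (log2 fold change -0.22, 95% interval -0.42 to -0.02, adjusted p = 0.107 by edgeR). CACNB1, the skeletal muscle form, stood at 2.33 ± 0.0502 and 2.12 ± 0.266 CPM (adjusted p = 0.503).

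Of the 8 CACNG genes, which encode calcium channel gamma subunits and auxiliary proteins of AMPA-type glutamate receptors, 2 were tested. CACNG6 rose 2.76-fold from a low level, 0.209, 0.135 and 0.222 CPM to 0.639, 0.396 and 0.523 CPM (log2 fold change 1.45, SE 0.31, adjusted p = 0.00900 by edgeR). CACNG8, 2073 bases away in the same cluster on chromosome 19, stood at 11.4, 7.23 and 5.96 CPM in control against 14.2, 9.76 and 7.69 CPM in knockout libraries. These groups overlapped, the spread inside each was wider than the difference of the means, and the gene did not pass (log2 fold change 0.36, 95% interval -0.26 to 0.99, adjusted p = 0.386 by edgeR). CACNG7, the third gene of that cluster, had at most 13 counts in a library, and CACNG2, CACNG3 and CACNG5 had 0 in all 6.

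Among the pore genes of sodium channels, SCN2A and SCN9A rose and SCN8A fell. SCN9A (ENSG00000169432; chromosome 2, 166195185 to 166376001, minus strand) encodes the channel of pain-sensing neurons. It rose from 0.528, 0.526 and 0.430 CPM to 1.46, 1.44 and 1.42 CPM, 2.91-fold (log2 fold change 1.54, SE 0.17, adjusted p = 2.01e-04 by edgeR). SCN2A (ENSG00000136531; chromosome 2, 165194993 to 165392310, plus strand), a channel of central neurons, rose from 5.92, 6.08 and 6.84 CPM to 8.57, 9.21 and 10.2 CPM, 1.48-fold (log2 fold change 0.57, SE 0.10, adjusted p = 0.00266 by edgeR). Both groups were tight in SCN9A and lay apart in each gene.

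These genes belong to a cluster on chromosome 2 with SCN3A, SCN1A and SCN7A, whose values were low. SCN3A, tested, stood at 0.133 ± 0.0195 CPM in control against 0.0973 ± 0.0525 CPM in knockout libraries (adjusted p = 0.554 by edgeR), and SCN1A and SCN7A had at most 1 and 2 counts in a library. SCN8A (ENSG00000196876; chromosome 12, 51590266 to 51812864, plus strand), a channel of axon initial segments, fell from 5.02, 6.11 and 4.69 CPM to 3.99, 4.21 and 3.32 CPM, 1.37-fold lower (log2 fold change -0.46, SE 0.14, adjusted p = 0.0371 by edgeR). The call was lost when any library other than control replicate 3 was left out: over the 6 fits that each left out a library, adjusted p ran from 0.0190 to 0.146. SCN10A and SCN11A, of sensory neurons, had 0 and at most 3 counts in a library.

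Among the beta subunit genes of sodium channels, SCN3B, SCN4B and SCN2B had at most 10, 10 and 1 counts in a library and were not tested.

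In all, 31 of the 63 genes were not tested. Their highest count in any library was 16, 20 of them had at most 3 counts in every library and 5 had none at all, which allows a level of up to the floor given above. In 3 of the 31, CACNA1C, CACNA1I and SCN4A, all knockout libraries lay above all control libraries on a few reads each. Of the 32 tested genes 27 reached the read minimum in all 6 libraries; the others were TRPC4, CACNA1E, CACNA2D2, CACNA2D4 and SCN3A. At a mean of at least 1 CPM, control libraries held 20 of the 63 genes and knockout libraries 19.

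The genes on either side of the 17 that passed were looked at by position, as the nearest tested protein-coding gene that does not overlap. Of these 34 neighbours 9 were called in the same direction, 6 in the opposite direction and 19 did not pass, so that 44.1% were called, against 33.0% of all tested protein-coding genes. TRPC4 lies 37792 bases from POSTN, a matrix protein gene that rose from 0.120 ± 0.0705 to 1.99 ± 0.0917 CPM. On both sides of TRPM3 the neighbours fell with it, KLF9 from 105 ± 10.05 to 20.3 ± 1.64 CPM and CEMIP2 from 405 ± 45.2 to 165 ± 19.2 CPM. Next to TRPM6, RORB rose from 25.5 ± 2.23 to 67.7 ± 6.56 CPM, and next to TRPV4, FAM222A fell from 8.36 ± 0.227 to 2.94 ± 0.384 CPM. In the opposite direction, MSC next to TRPA1 fell from 4.11 ± 0.269 to 0.858 ± 0.130 CPM, and COBLL1 next to SCN2A from 10.1 ± 1.36 to 6.98 ± 0.950 CPM.

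Other genes that move or sense calcium and sodium were counted in 10 lists, 103 genes of which 82 were tested. Of these 16 rose and 20 fell, 19.5% and 24.4%, against 14.0% and 14.0% of all tested genes, with a median log2 fold change of -0.05 against -0.02. The same shares over all tested genes are those to set beside the counts of each list below. In the calcineurin list, which holds calmodulin, calcineurin, NFAT and CaM kinase genes, 9 of 20 fell and 2 rose. Without control replicate 1 or 2 or knockout replicate 3, and with scaling by total counts, the count that fell in this list was 6. In those fits 9.16% to 11.1% of all tested genes were lower. NFATC2, a transcription factor switched on by calcineurin, fell from 119 ± 16.4 to 10.9 ± 1.51 CPM (log2 fold change -3.44, adjusted p = 5.55e-07 by edgeR). RCAN1, an inhibitor of calcineurin and a target of NFAT, fell from 157 ± 7.41 to 34.8 ± 1.70 CPM and RCAN3 from 49.2 ± 1.96 to 20.9 ± 2.33 CPM. The calcineurin catalytic gene PPP3CA rose from 53.3 ± 4.13 to 88.3 ± 6.37 CPM and CAMK2G from 20.9 ± 1.32 to 32.6 ± 1.33 CPM.

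Exchangers of sodium for calcium were divided. Of 5 tested genes 2 rose and 2 fell. SLC24A2, a potassium-dependent exchanger, had 214, 215 and 173 counts in control and 1, 0 and 0 counts in knockout libraries. Its relative SLC24A3 fell from 4.96 ± 0.529 to 0.118 ± 0.0141 CPM. SLC24A2 and SLC24A3 reached the read minimum in 0 knockout libraries and were tested because of their control libraries. SLC8A1, the plasma membrane exchanger NCX1, rose from 14.3 ± 0.460 to 24.8 ± 1.71 CPM and the mitochondrial exchanger SLC8B1 from 5.88 ± 0.295 to 8.02 ± 0.0173 CPM.

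In store release, ITPR2, an inositol trisphosphate receptor, fell from 40.7 ± 7.28 to 22.7 ± 3.24 CPM and ITPR1 rose from 17.8 ± 2.97 to 28.5 ± 4.38 CPM, and the other 4 of 6 tested did not pass. Of 7 store-operated entry genes 3 rose and the other 4 did not pass: the store sensor STIM2 from 72.5 ± 2.60 to 90.4 ± 4.33 CPM, the pore gene ORAI2 from 64.3 ± 2.40 to 79.6 ± 4.85 CPM and ORAI3 from 2.03 ± 0.292 to 3.65 ± 0.393 CPM. The ORAI2 call was lost without knockout replicate 2. Of 6 calcium pump genes ATP2B1, of the plasma membrane, rose from 148 ± 14.8 to 236 ± 17.0 CPM, and of 7 genes of mitochondrial uptake the pore gene MCU rose from 38.1 ± 1.66 to 49.2 ± 2.03 CPM. The count of higher pump genes was 2 without control replicate 1, and that of uptake genes 2 without control replicate 3.

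Among the remaining sodium genes, NALCN, the sodium leak channel, rose from 3.94 ± 0.471 to 11.4 ± 1.11 CPM, and FAM155A (NALF1), which encodes a partner of it, from 0.312 ± 0.0575 to 2.99 ± 0.545 CPM. UNC80, another part of that complex, fell from 0.875 ± 0.0496 to 0.125 ± 0.0547 CPM. Of 6 tested genes in the list of leak and epithelial sodium channels these were the 2 that rose and the 1 that fell. UNC80 reached the read minimum in 1 knockout library and was tested because of its control libraries. Of 4 tested sodium pump genes 1 rose and 1 fell; the beta subunit gene ATP1B1 rose from 106 ± 0.903 to 129.8 ± 7.81 CPM, a call lost without control replicate 2.

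Among 12 tested partners of voltage-gated channels 2 rose and 4 fell. Of the 4, 1 gene not named here lost its call when any library other than knockout replicate 1 was left out. FGF13 and FGF12, intracellular factors that bind sodium channels, fell from 25.9 ± 0.641 to 5.32 ± 0.183 CPM and from 4.22 ± 0.0558 to 0.586 ± 0.00204 CPM. ANK3, the ankyrin that anchors sodium channels, fell from 32.5 ± 2.60 to 13.5 ± 1.85 CPM. GEM, a small GTPase that restrains calcium channels, rose from 5.79 ± 0.696 to 27.3 ± 1.45 CPM, and STAC from 11.4 ± 0.199 to 16.1 ± 1.12 CPM. Of 9 tested genes for TRPML, polycystin and TPC channels, TPCN1 rose from 18.5 ± 2.01 to 26.3 ± 1.93 CPM, TPCN2, a channel of melanosomes and lysosomes, fell from 12.1 ± 0.759 to 7.18 ± 1.03 CPM and PKD1L1 from 0.215 ± 0.0315 to 0.0955 ± 0.0234 CPM. The PKD1L1 call was lost in each of the 6 fits that left out a library, with DESeq2 and without the read minimum. PKD1L1 reached that minimum in 0 knockout libraries and was tested because of its control libraries.

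**Figure D4:**
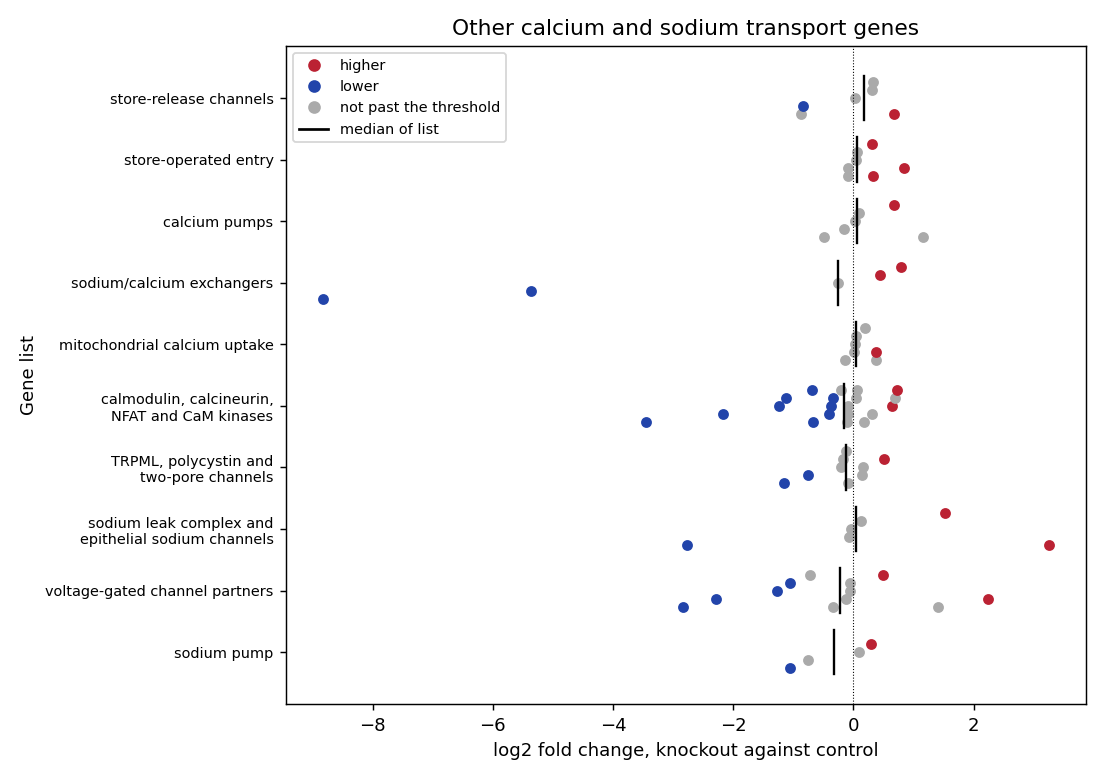
Log2 fold change of knockout against control (x axis) for each tested gene of the 10 other calcium and sodium transport lists (y axis; dots are offset vertically for legibility only), red where higher, blue where lower and grey where not past the threshold; black lines are list medians. The furthest left are SLC24A2, whose fitted value depends on a knockout total of 1 count, and SLC24A3, and the calcineurin list holds the most blue dots, 9 of 20.

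Markers of other cell types were counted in the same fit, since many channel genes are known from neurons and muscle. In that fit 14.0% of all tested genes were higher and 14.0% lower in knockout libraries. Of 6 tested neuron markers 2 rose and 1 fell, their sum was 47.8 to 52.9 CPM in control against 55.4 to 56.8 CPM in knockout libraries, and INA had 0 counts throughout; 1 marker rose with limma-voom, without control replicate 2 and without knockout replicate 1 or 3, and 2 fell without control replicate 3. SNAP25, a protein of vesicle fusion, rose from 1.46 ± 0.436 to 12.04 ± 0.714 CPM, and SYP fell from 1.32 ± 0.150 to 0.779 ± 0.0566 CPM. The neuron sum was mostly NEFL, which went down from 41.99 ± 3.34 to 36.01 ± 1.79 CPM without overlap but did not pass. The higher neuron sum in knockout libraries came mainly from SNAP25. Of 3 tested muscle markers 1 rose, which reached the read minimum in 0 control libraries, and the others did not pass. Muscle markers summed to 1.89 to 2.78 CPM in control against 2.09 to 2.95 CPM in knockout libraries, with MYOD1, MYOG and MYH6 at 0. Those sums were mostly MYH3, which did not pass. Of 10 fibroblast markers 7 rose and 1 fell, with sums of 16.8 to 20.05 and 28.1 to 30.3 CPM. Without control replicate 1 or knockout replicate 1 only 4 rose, and without control replicate 2 or knockout replicate 2 or 3 the count that fell was 0. Of 9 tested melanocyte and pigment markers 5 rose, among them MITF from 57.5 ± 2.15 to 138 ± 2.29 CPM. In the same list 2 fell, among them DCT from 1.62 ± 0.175 to 0.0657 ± 0.0258 CPM, and TYR had at most 1 count in a library. The sum of the list, mostly MITF, was 73.2 to 77.7 CPM in control against 167 to 170 CPM in knockout libraries. Without control replicate 1 or 3 the count that rose was 3. Of 4 tested endothelial markers 2 rose, CDH5 from 0.431 ± 0.121 to 1.96 ± 0.0579 CPM and PECAM1 from 0.293 ± 0.0877 to 1.13 ± 0.156 CPM, and 1 fell, KDR from 6.32 ± 1.10 to 0.175 ± 0.128 CPM. Their sum, in control mostly KDR, was 6.89 to 8.91 CPM in control against 3.47 to 4.55 CPM in knockout libraries, with ERG at 0. Of 4 tested keratinocyte markers KRT14 fell from 7.16 ± 0.789 to 0.249 ± 0.0110 CPM, and KRT5 rose from 0.110 ± 0.00185 to 0.788 ± 0.0964 CPM and EPCAM from 0.0873 ± 0.0222 to 0.260 ± 0.0639 CPM, the last a call lost without control replicate 2 or knockout replicate 1. The sum, 48.3 to 64.4 CPM against 52.5 to 66.9 CPM, was mostly KRT10, which did not pass, and KRT1 was at 0. Of 8 leukocyte markers 2 were tested and 1 fell, LYZ from 12.1 ± 1.80 to 1.64 ± 0.360 CPM, which made up nearly all of the summed 10.8 to 14.4 CPM in control and 1.57 to 2.30 CPM in knockout libraries. Some fibroblast, keratinocyte and pigment markers that rose, POSTN, KRT5 and EPCAM among them, reached the read minimum in fewer than 3 control libraries. They were tested because of their knockout libraries, so the counts of markers that rose depend partly on the filter. DCT, which fell, reached the read minimum in 0 knockout libraries and was tested because of its control libraries. Counts over bulk cells do not tell fewer cells of a kind from less RNA per cell, and the part of these marker changes in the channel results was not tested.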

How the data were processed

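RNA of 6 libraries (3 control, 3 knockout, grouped by label) was sequenced after selection of polyadenylated RNA with a stranded kit, per the labels' protocols. The file deposited by the authors holds unnormalized counts of reads for every gene; HISAT2, HTSeq and hg38 are named per the submitters' processing notes, with no versions, annotation or strand setting in the sources used here. Gene types, coordinates and merged exon lengths came from GENCODE 29 (GRCh38), which holds all 58721 gene identifiers. Channel genes, lists, motifs and alternatives were chosen with earlier results of these data known; neighbours, motifs and sequences were chosen after seeing the values.

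Genes kept by filterByExpr (minimum count 10; 19263 genes) were scaled by TMM and tested in edgeR 4.0.16 (R 4.3.3) (quasi-likelihood, two-sided, no covariates) at a Benjamini-Hochberg adjusted p under 0.05 over all genes. CPM uses TMM-scaled library sizes; fold values are ratios of mean CPM. Named were SOX10, each channel gene past the threshold, the most abundant per kilobase in each subfamily, and up to 3 genes per direction in other lists; others were added with values in view. A few genes, 1 of them past the threshold among the channel genes, are counted but not reported here by name. The alternatives tried were limma-voom (limma 3.58.1), DESeq2 1.42.0, other scalings and filters, glmTreat, the replicate block and leaving out each library. The procedure was tested on simulated counts. Replicates differed by more than sampling noise. Floors and intervals of counts cover counting error only. Tables and plots were made in Python 3.11.15 with pandas 2.3.3 and matplotlib 3.10.9.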

Additional observations from a re-analysis of the deposited data

How the results depend on the processing

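DESeq2, limma-voom, DESeq2 size factors and no read minimum each gave 12 higher and 5 lower channel genes, as in the main test. These settings called 29.8%, 28.0%, 27.6% and 14.6% of all genes they tested. Scaling by total counts (26.8% of all genes called) gave 12 and 3, losing SCN8A and TRPM4. Against a 2-fold change (glmTreat, 6.4% of all genes called) 4 channel genes were higher and 3 lower, and of the other transport genes 3 and 7. Leaving out each library gave 10 to 12 higher and 3 to 5 lower channel genes, the latter 3 without control replicate 1 or 2 or knockout replicate 2 or 3. Where it was 3, 9.09% to 10.6% of all tested genes were lower, against 14.0% in the main test. Other transport genes ranged from 15 to 18 higher and 15 to 19 lower over the 6 fits that each left out a library. Requiring 1 CPM in 3 libraries left 21 channel genes to test, 9 higher and 4 lower (31.3% of all genes called). Total count scaling moved the median of all genes by 0.04 on the log2 scale.

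No direction of the 17 called channel genes reversed in any alternative. Among the genes named that did not pass, the log2 fold change of TRPM7 turned to 0.015 with total counts. Leaving out each library, CACNA1A ranged from -0.27 to 0.060 (above 0 without control replicate 2), CACNA2D2 from -0.29 to 0.39 (below 0 without knockout replicate 2) and CACNB4 from -0.46 to 0.026 (above 0 without control or knockout replicate 3). The cause was not tested.

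With the replicate number as a block, 14 channel genes were higher and 7 lower (50.9% of all genes were then called). The block added CACNG8, TRPV1, CACNB3 and CACNA1E. Of the other transport genes 25 were higher and 30 lower, against 16 and 20 in the main test. Deviations of libraries with the same number correlated at 0.302, -0.00438 and 0.314, and those with unlike numbers at -0.33 to 0.059. Whether the numbers pair the samples is not in the labels, and the main test used no block. The precision of genes under about 10 counts is limited by depth.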
